A study of Mus musculus with 18 samples.

Results

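The 6 secreted chemokine genes Ccl1, Ccl2, Ccl3, Ccl4, Ccl7 and Cxcl2 were followed over 6 groups of RNA-seq libraries of mouse mast cells. They were chosen by gene symbol, with earlier results of these data known. All 6 were found among the 45777 genes of the table and among the 17159 genes that passed the filter on low counts. Cxcl2 passed that filter through its counts at 20 and 60, since it had 0 counts in every KO library at 0. The cells were bone marrow-derived mast cells (BMMCs), which are grown in culture from marrow flushed out of femurs and tibias. KO cells carried Sirt6 flox/flox alleles and LysM-Cre, in which the lysozyme M promoter, active in myeloid cells, drives the Cre recombinase. WT cells carried the same Sirt6 flox/flox alleles without the Cre, so that all groups share the floxed alleles. Each genotype was sampled at levels 0, 20 and 60, with 3 libraries per group and 18 in all. The unit of the levels is not given. The labels name LPS as the treatment at 20 and 60 and none at 0, whereas the title of the series names FcεRI, the receptor for IgE, and the stimulus is therefore called by its level here. The age of the animals is not given in the sources used here. Every group has libraries numbered 4120, 414 and 6110, and the labels do not say whether these are separate animals or cultures, so that a p-value here reflects the spread among libraries, which may be technical. Libraries of 1 genotype and 1 number are called a culture.

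Chemokines are small secreted proteins that attract leukocytes through G protein-coupled receptors. Activated mast cells release histamine and proteases from stored granules at once, and they transcribe chemokine genes anew, through NF-κB, AP-1 and NFAT, which act on promoters close to the start sites. Many chemokine mRNAs carry AU-rich elements, repeats of ATTTA in the 3′ untranslated region, to which proteins bind that speed up decay of the mRNA. Sirt6, a nuclear deacetylase of the sirtuin family, is known from other cells to be recruited to NF-κB target promoters. The series asks which transcripts change when it is lacking.

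The 6 genes lie at 3 places in the genome (GRCm38.p6, RefSeq). Ccl2 (gene ID 20296, chr11:82035577-82037452), Ccl7 (20306, chr11:82045712-82047525) and Ccl1 (20290, chr11:82176666-82179812, minus strand) lie within 144.2 kb of chromosome 11. Ccl3 (20302, chr11:83647843-83649378, minus strand) and Ccl4 (20303, chr11:83648624-83664683) form a second group that spans 16.8 kb. The longest RefSeq extent of Ccl4 overlaps Ccl3 on the opposite strand, and Ccl2 overlaps the predicted gene Gm17268 on the minus strand. The strand of counting is not stated, so that reads from the overlapping stretches cannot be told apart. Cxcl2 (20310, chr5:90903899-90905938) lies on chromosome 5 and shares 126 of its 2159 stretches of 50 bases with Cxcl3. Cxcl3 and Cxcl1 had totals of 5 and 2 counts over the 18 libraries, against 579 for Cxcl2.

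Promoters are shown for the 3 genes that have an entry in the RefSeq promoter table, because activation of these genes is known to run through the bases near the start. Each is given 5′ to 3′ on the strand of the gene, as the 250 bases before the start: chr11:82179813-82180062 (minus strand) for Ccl1, chr11:83649379-83649628 (minus strand) for Ccl3 and chr5:90903649-90903898 (plus strand) for Cxcl2. Capitals mark matches to the κB consensus, the binding motif of NF-κB.
Ccl1: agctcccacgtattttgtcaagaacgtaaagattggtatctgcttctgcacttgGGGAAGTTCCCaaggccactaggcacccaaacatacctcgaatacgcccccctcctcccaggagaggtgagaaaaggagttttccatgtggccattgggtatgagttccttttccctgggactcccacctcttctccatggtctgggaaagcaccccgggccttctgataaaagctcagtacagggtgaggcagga
Ccl3: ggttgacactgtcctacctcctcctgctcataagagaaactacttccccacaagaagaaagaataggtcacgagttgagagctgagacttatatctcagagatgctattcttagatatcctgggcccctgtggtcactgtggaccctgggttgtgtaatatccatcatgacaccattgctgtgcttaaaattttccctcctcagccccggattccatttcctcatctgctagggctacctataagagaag
Cxcl2: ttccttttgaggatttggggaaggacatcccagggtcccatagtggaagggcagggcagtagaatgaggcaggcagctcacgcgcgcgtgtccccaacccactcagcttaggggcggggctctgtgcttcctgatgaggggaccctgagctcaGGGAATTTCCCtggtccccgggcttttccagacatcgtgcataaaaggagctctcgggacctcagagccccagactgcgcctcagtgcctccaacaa
The κB consensus was searched on both strands. It matched at 196 bases before the start of Ccl1 (GGGAAGTTCC) and at 97 bases before the start of Cxcl2 (GGGAATTTCC), in each case with an overlapping match on the other strand, and 7.25% of 32841 mouse promoters of this length hold one. The Ccl3 window held no match. The AP-1 motif TGANTCA (both strands, 6.75% of promoters) had no match in the 3 windows, and neither had TATAAA on the gene's strand (7.59% of promoters). The short motif GGAAA, the core to which NFAT binds, was found 3 times for Ccl1, 2 times for Ccl3 and 2 times for Cxcl2 on either strand, and 55.6% of promoters hold it. GGGCGG, to which Sp1 binds, was found in the Cxcl2 window, as in 32.7% of promoters.

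AU-rich stretches of the 3′ untranslated regions of 4 members are shown because the number of ATTTA copies set the members apart from each other. Each window has 30 bases of the GENCODE M21 transcript (GRCm38), with ATTTA in capitals: chr11:82037205-82037234 (plus strand) for Ccl2, chr11:83648075-83648104 (minus strand) for Ccl3, chr11:82047254-82047283 (plus strand) for Ccl7 and chr5:90905327-90905356 (plus strand) for Cxcl2.
Ccl2: taatattaaacttATTTAacttattgatgt
Ccl3: ttgaaattttATTTAATTTAatcctattgg
Ccl7: tattaatatttttATTTAattagccatgta
Cxcl2: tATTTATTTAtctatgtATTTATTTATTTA
Over the whole 3′ untranslated region, Cxcl2 had 11 copies of ATTTA in 734 bases, of which 4 lay in the longer motif TTATTTATT, and Ccl3 had 5 copies in 409 bases. Ccl4 and Ccl7 had 2 copies each in 302 and 435 bases, Ccl2 had 1 in 275 bases and Ccl1 had 0 in 167 bases. Per kilobase, Cxcl2 (15) and Ccl3 (12.2) stood at percentiles 99.8 and 99.6 of 17786 mouse genes, Ccl4 (6.62) at 96.3, Ccl7 (4.60) at 90.9 and Ccl2 (3.64) at 85.3. The median gene had 1.27 copies per kilobase, and 66.8% of genes had at least 1 copy.

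The libraries held between 20026054 and 42265435 counts, and 3 counts in the smallest library are 0.15 CPM, the count scaled to the size of its library. The mRNAs of 37 mitochondrially encoded genes took 4.09% to 41.9% of the counts, with over 30% in 4 libraries (WT 4120 at 0 and 20, and number 414 at 60 in both genotypes). All 10 mast cell markers were detected in every group, with summed levels of 15522 to 45909.8 CPM. Markers of macrophages and monocytes summed to 4.77 to 26.8 CPM, and Marco was at 0 in all groups. The other marker lists summed to at most 26.9 CPM for neutrophils, 45.8 for basophils, 0.901 for T cells, 0.689 for B cells, 0.923 for dendritic cells and 3.81 for fibroblasts. Sirt6 itself had edgeR log2 differences, KO minus WT, of 0.19, 0.22 and 0.14 at 0, 20 and 60 (edgeR adjusted p = 0.74, 0.79 and 0.85). Its counts cover the whole gene, exons outside the deletion included, and check no label.

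All 6 chemokines were higher at 20 than at 0 in each of the 6 cultures. Ccl2, Ccl3, Ccl4 and Ccl7 rose in both genotypes, by 2.37 to 5.70 on the log2 scale, and these 4 of 6 members were called in KO and the same 4 in WT (edgeR, Benjamini-Hochberg adjusted p under 0.05). Over all 17159 genes 0.443% were called higher in KO and 0.6% in WT. The median log2 change of the members was 5.14 in KO and 4.61 in WT, against −0.028 and −0.023 for all genes. Because the members were chosen with earlier results known, their contrast with all genes is in part built into the choice. The libraries at 20 and at 0 did not overlap for 6 of 6 members in KO, against 8.11% of all genes, and for 6 of 6 in WT, against 9.81%. Over the 6 cultures the mean change of log2(CPM + 0.1) ran from 2.70 ± 0.70 for Ccl2 to 5.57 ± 0.62 for Ccl4 (SD, n = 6), and each member had p = 0.031 in a two-sided exact sign-flip test, the smallest that 6 cultures allow. Cxcl2 had no count in KO at 0 and passed the filter through the groups where it is higher. Its part in these counts, medians and tests therefore supports nothing. In whole cultures, more cells with the mRNA and more mRNA per cell cannot be told apart. At 20 the 6 genes together took 0.833% ± 0.235 of all TPM, a level scaled for transcript length and library size, in KO and 0.676% ± 0.311 in WT (SD, n = 3). At 0 these shares were 0.0530% ± 0.0187 in KO and 0.0516% ± 0.0154 in WT.

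**Figure D1:**
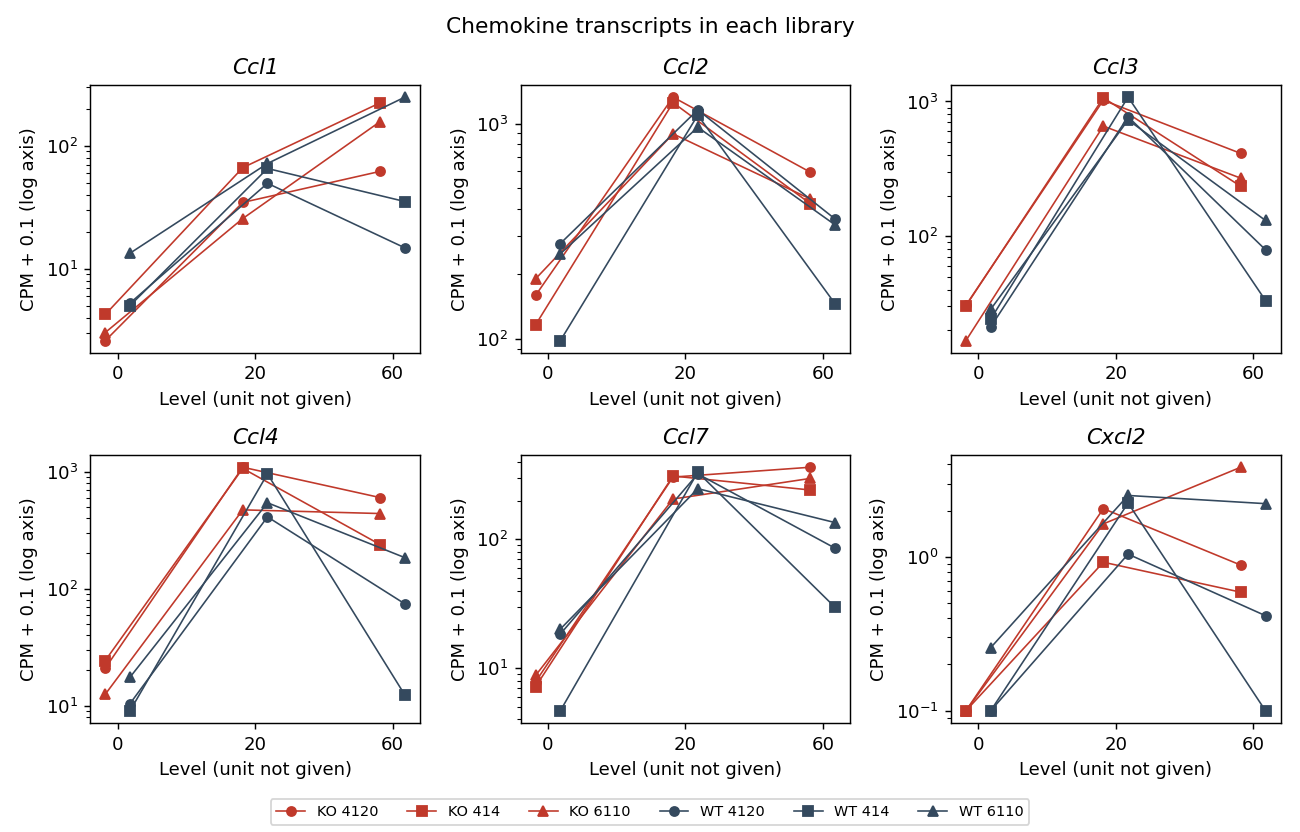
Levels of the 6 chemokines in each library, as CPM + 0.1 on a log axis, at levels 0, 20 and 60; points are libraries, colours mark KO and WT, symbols mark the number, and lines join libraries of 1 genotype and 1 number. All members are higher at 20 than at 0 in every culture, and Ccl2, Ccl3 and Ccl4 are lower at 60 than at 20 in every culture.

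Ccl2 and Ccl7 attract monocytes through Ccr2, and by mean TPM Ccl2 was the highest member in unstimulated cells. In KO, Ccl2 was at 159, 116 and 189.9 CPM at 0, at 1328, 1252 and 896 CPM at 20, and at 594, 424 and 446 CPM at 60 (numbers 4120, 414 and 6110, in this order throughout). In WT it was at 277, 97.9 and 248 CPM at 0, at 1159, 1095 and 962 CPM at 20, and at 359.8, 145 and 338 CPM at 60. In both genotypes the 3 libraries at 20 were the highest and stood clear of the others, and at 0 the KO and WT libraries overlapped. Ccl2 rose at 20 by 2.90 in KO (SE 0.40, edgeR adjusted p = 0.001) and by 2.37 in WT (SE 0.39, edgeR adjusted p = 0.0057) on the log2 scale. In WT the call was lost with the compared groups alone in the fit (edgeR adjusted p = 0.097) and with limma on log2(TPM + 1) (limma adjusted p = 0.054). By mean TPM it ranked 50th of 45777 genes in KO and 51st in WT at 20.

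At 0 Ccl7 was far lower than Ccl2, at 19.2 ± 6.64 TPM in KO and 26.4 ± 14.2 TPM in WT, against 387 ± 176 and 386 ± 126 TPM for Ccl2 (SD, n = 3). In KO it was at 7.74, 7.07 and 8.67 CPM at 0, at 305, 311 and 206 CPM at 20, and at 364, 242 and 298 CPM at 60. In WT it was at 18.3, 4.56 and 20 CPM at 0, at 323, 333 and 248 CPM at 20, and at 85.3, 29.5 and 135 CPM at 60. The KO libraries at 60 overlapped those at 20, whereas each WT library at 60 was below all 3 WT libraries at 20. Ccl7 rose at 20 by 5.13 in KO (SE 0.57, edgeR adjusted p = 0.00011) and by 4.40 in WT (SE 0.55, edgeR adjusted p = 4e-04).

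Ccl3 and Ccl4 attract T cells, monocytes and other leukocytes. In KO, Ccl3 was at 30.5, 30.2 and 16.6 CPM at 0, at 1021, 1065 and 656 CPM at 20, and at 411, 234 and 269 CPM at 60. In WT it was at 21, 24 and 28.4 CPM at 0, at 769, 1077 and 729 CPM at 20, and at 79, 33.1 and 130.4 CPM at 60. The genotypes overlapped at 0 and at 20, and at 60 the lowest KO library was above the highest WT library. The rise at 20 was 5.15 in KO (SE 0.47, edgeR adjusted p = 1.8e-05) and 5.13 in WT (SE 0.47, edgeR adjusted p = 3.8e-05).

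Ccl4 followed Ccl3 closely, with a Pearson r of 0.979 between their log2 levels over the 18 libraries, which share depth and composition. In KO it was at 20.8, 24.2 and 12.4 CPM at 0, at 1093, 1068 and 472 CPM at 20, and at 601, 238 and 439 CPM at 60. In WT it was at 10.3, 8.93 and 17.4 CPM at 0, at 411, 958 and 543 CPM at 20, and at 74, 12.2 and 184 CPM at 60. WT 414 at 60, the library with 41.9% mitochondrial counts, had the lowest value after stimulation and lay within the unstimulated WT range. Ccl4 rose at 20 by 5.52 in KO (SE 0.79, edgeR adjusted p = 0.0015) and by 5.70 in WT (SE 0.80, edgeR adjusted p = 0.0013).

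Ccl1, the ligand of Ccr8 on T cells, had a mean of 156 TPM in KO and 214 TPM in WT at 20 and did not pass the test there. In KO it was at 2.51, 4.16 and 2.94 CPM at 0, at 34.5, 66.2 and 25.5 CPM at 20, and at 61.8, 223 and 157 CPM at 60. In WT it was at 5.17, 4.93 and 13.3 CPM at 0, at 49.4, 65.2 and 71.6 CPM at 20, and at 14.7, 35.1 and 248 CPM at 60. All 3 KO cultures were highest at 60, whereas in WT this held for number 6110 and the other two were highest at 20. At 20 against 0 the log2 change was 3.72 in KO (SE 0.84, edgeR adjusted p = 0.086) and 2.98 in WT (edgeR adjusted p = 0.21). With the library number as a block, which the check of pairing described under processing allows here, the KO value was 3.79 (edgeR adjusted p = 0.026). With the culture as a block it was 3.66 in KO and 3.30 in WT (edgeR adjusted p = 0.0068 and 0.011). Of the 6 members, each of these blocks gave 6 calls in KO and 5 in WT at 20 against 0, so that neither called every member in WT.

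Cxcl2, a neutrophil attractant that acts through Cxcr2, was present in traces. In KO it had 0, 0 and 0 counts at 0, 60, 22 and 54 at 20, and 26, 8 and 153 at 60. In WT it had 0, 0 and 5 counts at 0, 21, 70 and 79 at 20, and 11, 0 and 70 at 60. The highest level, in KO 6110 at 60, was 3.73 CPM, and WT 414 at 60 had no count. Against 3 counts over the KO libraries at 0 (0.0292 CPM), the KO mean was at least 49.4-fold higher at 20 and at least 57.1-fold higher at 60, which covers counting error only. In edgeR the change at 20 had an adjusted p of 0.13 in KO and 0.30 in WT, and with the library number as a block edgeR gave adjusted p = 0.021 and 0.045. Cxcl2 passed the filter through the groups where it is higher, so that these p-values support nothing.

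At 60 against 0 the log2 changes of all 6 members were above 0 in both genotypes. The members were called by edgeR in KO and not in WT. The difference between genotypes in this response was called for 0 members. In KO edgeR called 6 members higher at 60 than at 0, where 1.99% of all genes were called higher. One of the 6, Cxcl2, had no count in KO at 0 and passed the filter through the groups where it is higher, so that its call supports nothing. The KO libraries at 60 and at 0 did not overlap for any of the other 5, against 19.5% of all genes that did not overlap. Ccl7 rose by 5.26 (SE 0.57, edgeR adjusted p = 0.00013), Ccl1 by 5.53 (SE 0.91, edgeR adjusted p = 0.0034) and Ccl4 by 4.48 (SE 0.75, edgeR adjusted p = 0.0039). Ccl3 rose by 3.56 (SE 0.44, edgeR adjusted p = 0.00036) and Ccl2 by 1.65 (SE 0.38, edgeR adjusted p = 0.028), and Cxcl2 had edgeR adjusted p = 0.031. The calls of Ccl2 and Cxcl2 were lost with library size scaling (edgeR adjusted p = 0.15 for Ccl2 and 0.057 for Cxcl2) and with the limma fits of TPM. Both were also lost without any 1 of 5 of the 6 KO libraries at 0 and 60, all but KO 414 at 60 (edgeR adjusted p = 0.051 to 0.15 for Ccl2 and 0.05 to 0.12 for Cxcl2). The comparisons at 20 and 60 share the libraries at 0.

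In WT edgeR called 0 of 6 members at 60 against 0, where it called 0.198% of all genes higher. The log2 changes were 3.66 for Ccl1 (edgeR adjusted p = 0.098), 2.88 for Ccl4 (edgeR adjusted p = 0.14) and 2.55 for Ccl7 (edgeR adjusted p = 0.053). They were 1.73 for Ccl3 (edgeR adjusted p = 0.12) and 0.44 for Ccl2 (edgeR adjusted p = 0.90), and Cxcl2 had edgeR adjusted p = 0.46. Of these, 5 had an unadjusted p under 0.05, and DESeq2 called Ccl1, Ccl3, Ccl4 and Ccl7. With the mitochondrial share as a covariate edgeR called Ccl7 (2.48, adjusted p = 0.046), and with no filter on low counts it called Ccl7 as well (2.59, adjusted p = 0.03). The libraries at 60 and at 0 did not overlap for 3 members, against 10.2% of all genes. The count also moved when 1 library was left out. Without WT 414 at 60 edgeR called Ccl1 (4.08), Ccl3 (2.13), Ccl4 (3.42) and Ccl7 (2.98), with adjusted p of 0.049, 0.016, 0.015 and 0.014. Without WT 4120 at 60 edgeR called Ccl1 (4.17, adjusted p = 0.025).

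Between 20 and 60 the members parted. Ccl2, Ccl3 and Ccl4 were lower at 60 than at 20 in 6 of 6 cultures, with mean changes of log2(CPM + 0.1) of −1.64 ± 0.68, −2.59 ± 1.41 and −2.24 ± 2.16 (SD, n = 6). Each had p = 0.031 in the exact sign-flip test, again the smallest possible. Ccl7 changed by −0.98 ± 1.51 and was higher in 2 of 6 cultures (exact p = 0.19), Ccl1 by 0.73 ± 1.70 and was higher in 4 (exact p = 0.38), and Cxcl2 by −1.11 ± 1.89 and was higher in 1 (exact p = 0.19). This test takes libraries of 1 genotype and number as a pair, and it was 1 of 18 such tests, 3 for each member. In the check of pairing described under processing, the lowest correlation for WT 60 against WT 20 was 0.01. The pairs of the WT cultures are therefore not borne out here.

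Within WT, Ccl3 fell at 60 against 20 by 3.41 on the log2 scale (SE 0.43, edgeR adjusted p = 0.0014) and Ccl2 fell by 1.93 (SE 0.38, edgeR adjusted p = 0.035), so that 2 of 6 members were called, where 0.286% of all genes were called lower. Ccl2 lost its call without any 1 of the 6 libraries (edgeR adjusted p = 0.067 to 0.13), and with only the 2 compared groups in the fit Ccl3 had edgeR adjusted p = 0.095. Ccl4 had −2.82 (edgeR adjusted p = 0.11) and −3.89 without WT 6110 at 60 (edgeR adjusted p = 0.038). Ccl1 had 0.68 (edgeR adjusted p = 1), and without WT 6110 at 60 it had −1.35. Ccl7 had −1.85 (edgeR adjusted p = 0.14). DESeq2 called 4 members, with Ccl4 at −2.82 and Ccl7 at −1.85 beside Ccl2 and Ccl3 (DESeq2 adjusted p = 0.0011 for Ccl4 and 0.0084 for Ccl7). The WT libraries did not overlap for 4 members, against 11.3% of all genes.

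Within KO edgeR called 0 of 6 members at 60 against 20, where it called 1.11% of all genes in either direction. The values were −1.58 for Ccl3 (edgeR adjusted p = 0.082), −1.25 for Ccl2 (edgeR adjusted p = 0.16), −1.04 for Ccl4 (edgeR adjusted p = 0.68), 0.14 for Ccl7 (edgeR adjusted p = 1) and 1.81 for Ccl1 (edgeR adjusted p = 0.39). The 0.14 of Ccl7 turned to −0.05 with scaling by library size and −0.17 with TPM, and both lie within its error. For 3 members the unadjusted p was under 0.05, and DESeq2 called Ccl2 and Ccl3. With the library number as a block 1 member was called, Ccl2 at −1.28 (edgeR adjusted p = 0.039), and with the culture as a block Ccl3 at −1.57 as well (edgeR adjusted p = 0.024). The libraries of KO at 60 and 20 did not overlap for 2 members, against 17.2% of all genes.

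**Figure D2:**
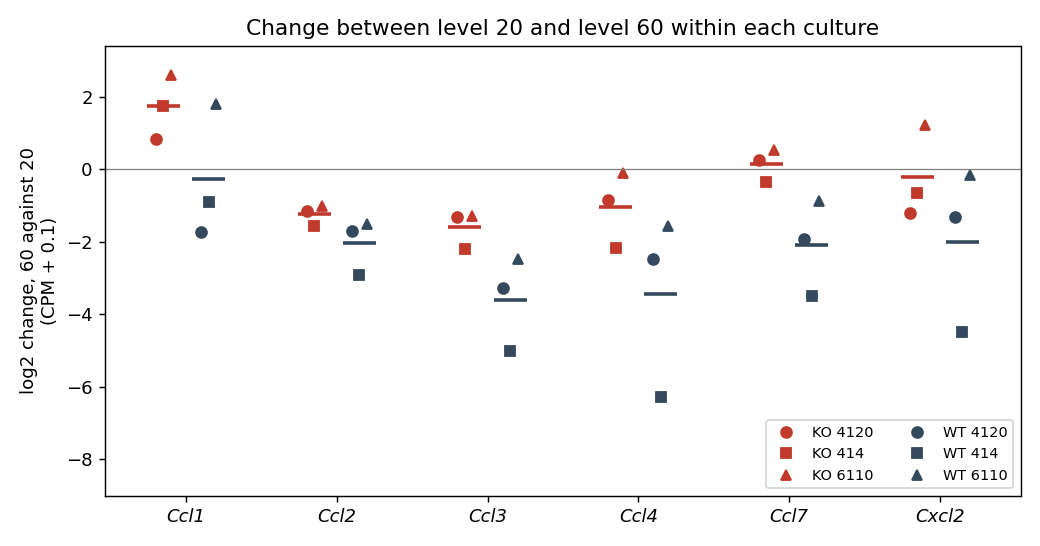
Change of each chemokine between levels 20 and 60 in each culture, as log2(CPM + 0.1) at 60 minus that at 20, with KO left of WT; points are cultures, marked by number, and horizontal lines are means of 3. For Ccl3 and Ccl7 the 3 KO cultures lie above the 3 WT cultures, and the share of all genes for which this holds was not computed. The check of pairing did not bear out the WT pairs of 60 and 20.

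No course in time is read from the levels 20 and 60, whose unit is not given. The CPM at 60 was taken as a percentage of the same culture's CPM at 20. For Ccl7 it was 119%, 77.8% and 144% in KO cultures and 26.4%, 8.85% and 54.5% in WT cultures. For Ccl3 it was 40.3%, 21.9% and 41% in KO cultures and 10.3%, 3.07% and 17.9% in WT cultures. These were the members whose KO and WT cultures did not overlap, and the exact permutation test of the log2 changes gave p = 0.1 for each, the smallest that 3 against 3 cultures allow. How often KO and WT cultures part in this way among all genes was not computed, so that the separation is a description only. In the check of pairing, the lowest correlation for WT 60 against WT 20 was 0.01. The WT percentages and this permutation test rest on those pairs, which are not borne out.

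For Ccl4 it was 55%, 22.3% and 93.1% in KO cultures and 18%, 1.28% and 33.8% in WT cultures. For Ccl2 it was 44.7%, 33.9% and 49.8% in KO cultures and 31.1%, 13.2% and 35.2% in WT cultures. The lowest KO culture in both was number 414, which was also the lowest WT culture, and the genotypes overlapped. For Ccl1 it was 179%, 336% and 615% in KO cultures and 29.7%, 53.9% and 346% in WT cultures, with overlap through WT 6110. These WT percentages too rest on pairs that the check of pairing did not bear out. Tested as a difference in response between genotypes, 60 against 20, edgeR gave 1.82 for Ccl3 (SE 0.56) and 1.99 for Ccl7 (SE 0.68) on the log2 scale, both with adjusted p = 1. For 60 against 0 the differences were 1.84 for Ccl3 (SE 0.56, unadjusted p = 0.0049, edgeR adjusted p = 1) and 2.72 for Ccl7 (SE 0.69, unadjusted p = 0.0012, edgeR adjusted p = 1). Of all genes, edgeR called 0% in these comparisons, and among the members 2 (60 against 20) and 3 (60 against 0) had an unadjusted p under 0.05, and 0 (20 against 0) did. DESeq2 called 0 of 6 members in each.

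KO and WT were then compared at each level. At 60, Ccl2, Ccl3, Ccl4 and Ccl7 were each higher in all 3 KO libraries than in any WT library, but edgeR called 0 of 6 members. Over all genes edgeR called 0.268%, and KO and WT libraries at 60 did not overlap for 15.2%, against 4 of 6 members. Ccl3 averaged 305 ± 94.0 CPM in KO and 80.8 ± 48.7 CPM in WT (SD, n = 3 each), a log2 difference of 1.91 (SE 0.41, edgeR adjusted p = 0.07). Ccl7 averaged 301 ± 61.0 CPM in KO and 83.3 ± 52.8 CPM in WT, a difference of 1.85 (SE 0.49, edgeR adjusted p = 0.18). Ccl4 averaged 426 ± 182 CPM in KO and 89.9 ± 86.8 CPM in WT, a difference of 2.24 (SE 0.68, edgeR adjusted p = 0.26). These values put the KO mean well above the WT mean, with a WT spread that for Ccl4 was nearly as large as its mean.

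Ccl2 averaged 488 ± 92.4 CPM in KO and 281 ± 118 CPM in WT, a difference of 0.80 (SE 0.37, edgeR adjusted p = 0.46). Ccl1 averaged 147 ± 80.9 CPM in KO and 99.1 ± 129 CPM in WT, a difference of 0.57 (SE 0.74, edgeR adjusted p = 0.81). Cxcl2 had a difference of 1.02 (SE 1.08, edgeR adjusted p = 0.75). The Ccl1 groups overlapped through WT 6110, which at 248 CPM was the highest of all 18 libraries. With 1 library left out at a time the difference ran from 0.05 to 2.59 for Ccl1, from 1.72 to 3.31 for Ccl4, from 1.45 to 2.41 for Ccl7 and from −0.36 to 3.24 for Cxcl2. The highest value of each came without WT 6110 at 60, where edgeR adjusted p was 0.12 for Ccl1, 0.08 for Ccl4, 0.092 for Ccl7 and 0.31 for Cxcl2. The lowest came without WT 4120 for Ccl1, without WT 414 for Ccl4 and Ccl7, and without KO 6110 for Cxcl2. The median of the members, Cxcl2 included, was 1.44, against 0.023 for all genes. Cxcl2 passed the filter through the groups where it is higher, and the members were chosen with earlier results known. This contrast with all genes is therefore a description only. Of the members, 4 had an unadjusted p under 0.05, as had 1843 of all genes, and by unadjusted p Ccl3 ranked 61st and Ccl7 154th of all genes. DESeq2 called Ccl3, Ccl4 and Ccl7 (DESeq2 adjusted p = 0.00038, 0.031 and 0.013).

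With the library number as a block edgeR called 1 member at 60, Ccl3 at 1.90 (adjusted p = 0.044), and gave Ccl7 1.95 (adjusted p = 0.056). Without WT 6110 at 60, Ccl3 had 2.46 (edgeR adjusted p = 0.023). The mitochondrial share was lower in KO within each number at 60: 4.47%, 34.7% and 4.29% in KO libraries, against 8.84%, 41.9% and 15.8% in WT libraries. With the log2 of this share as a covariate the differences were 1.79 for Ccl3 (edgeR adjusted p = 0.091), 1.94 for Ccl4 and 1.73 for Ccl7, and Cxcl2 turned to −0.04. Without the 4 libraries over 30% the differences were 1.70 for Ccl3 (edgeR adjusted p = 0.27), 2.02 for Ccl4 and 1.59 for Ccl7, and Ccl1 turned to −0.25. Summed levels of markers of other myeloid cells at 60 are given beside these values. The 10 macrophage and monocyte markers, of which 7 were tested, summed to 12.9 to 26.8 CPM in KO and 9.16 to 10.7 CPM in WT, with Marco at 0 in both and Mrc1 at 0 in WT. These sums overlapped at 0 (7.87 to 14 CPM in KO, 4.77 to 10.3 CPM in WT) and at 20 (6.72 to 13.9 CPM in KO, 7.38 to 10.5 CPM in WT). At 60 Adgre1 averaged 8.36 CPM in KO and 3.99 CPM in WT, and Cd14 averaged 8.53 CPM in KO and 2.97 CPM in WT. Csf1r, Itgam, Mrc1, Fcgr1 and Ly6c2 were higher in KO as well. Lower in KO were Mertk, at 0.0403 CPM against 0.124 CPM in WT, and Lyz2, the lysozyme M gene, at 0.0604 CPM against 1.96 CPM in WT. Lyz2 was lower in KO at 0 (0.112 against 2.25 CPM) and at 20 (0.109 against 2.04 CPM) too. Only KO cells carry LysM-Cre, so that for Lyz2 the allele and the cells present cannot be told apart. The 9 neutrophil markers, of which 8 were tested, summed to 12.4 to 22.3 CPM in KO and 0.106 to 5.29 CPM in WT, with Elane at 0 in WT. These neutrophil sums also stood apart at 0 (7.43 to 13.8 CPM in KO, 0.201 to 1.47 CPM in WT) and at 20 (7.15 to 26.9 CPM in KO, 0 to 3.91 CPM in WT). The 2 basophil markers summed to 4.38 to 45.8 CPM in KO and 1.17 to 4.46 CPM in WT. The part of these cells in the chemokine values was not tested.

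**Figure D3:**
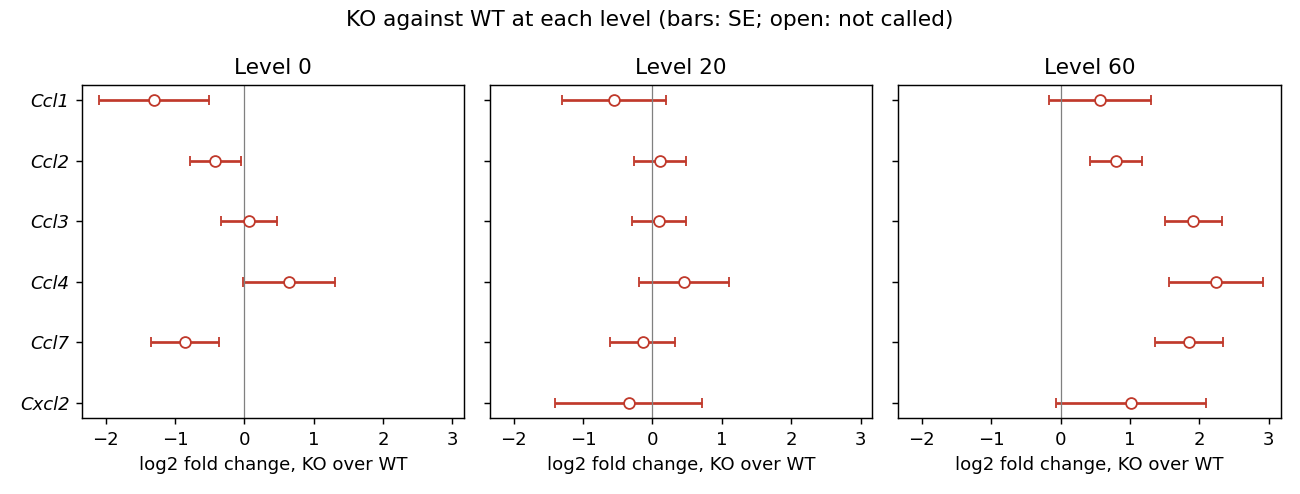
Log2 difference, KO minus WT, of each chemokine at levels 0, 20 and 60, from edgeR; open points are estimates, none of them called, and bars are standard errors, and Cxcl2 is left out at 0, where KO had no count. At 60 all 6 estimates are above 0, from 0.57 for Ccl1 to 2.24 for Ccl4, and at 20 the 6 lie between −0.56 and 0.46.

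No member was called between the genotypes at 0 or at 20. At 0 edgeR called 0 of 6 members, where it called 0.274% of all genes, and at 20 it called 0 of 6, where it called 0.21%. At either level 0 members had an unadjusted p under 0.05, and DESeq2 called 0 members. At 0 the differences were −1.30 for Ccl1, −0.86 for Ccl7, −0.42 for Ccl2, 0.07 for Ccl3 and 0.64 for Ccl4 (edgeR adjusted p between 0.49 and 0.95), and Cxcl2 had no count in the KO libraries and 5 counts in 1 of the 3 WT libraries. The libraries did not overlap for 1 member, Ccl1, at 2.51 to 4.16 CPM in KO and 4.93 to 13.3 CPM in WT, against 13.1% of all genes. At 20 the differences were −0.56 for Ccl1, −0.34 for Cxcl2, −0.14 for Ccl7, 0.09 for Ccl3, 0.11 for Ccl2 and 0.46 for Ccl4 (edgeR adjusted p between 0.85 and 0.96). KO and WT overlapped for all 6 members at 20, where 17.3% of all genes did not overlap. The values of Ccl3 at 0 and of Ccl2, Ccl3 and Ccl7 at 20, all within 0.15 of 0, changed sign under at least 1 alternative.

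The mixture of the 6 mRNAs changed with the level. On the length-scaled TPM scale, Ccl2 made up 73% of their sum in KO and 74.9% in WT at 0, and 33.4% in both at 20. At 20 Ccl3 and Ccl4 made up 26.7% and 30.1% in KO and 28.3% and 25.6% in WT. At 60 the sum itself was 0.383% ± 0.177 of all TPM in KO and 0.138% ± 0.0903 in WT (SD, n = 3). Ccl2 then made up 26.2% in KO and 41.1% in WT, and in single libraries 24.7% to 27.4% in KO and 27.6% to 56.3% in WT. Ccl7 made up 15.7% to 16.6% in KO libraries and 10.6% to 13.4% in WT libraries. Ccl1 made up 4.46%, 22.9% and 13.8% in KO libraries and 3.67%, 20.1% and 32.2% in WT libraries, which overlapped. Its share of the mean was 10.9% in KO and 20% in WT, and 6.84% in WT without number 6110. Cxcl2 was at most 0.0795% in any group. The ratio of Ccl7 to Ccl2, which are neighbours and both Ccr2 ligands, was looked at after these values were seen and is given as a description. At 60 the TPM ratio was 0.621 ± 0.0484 in KO and 0.281 ± 0.105 in WT (SD, n = 3 each), and the ranges, 0.575 to 0.672 in KO and 0.205 to 0.401 in WT, did not overlap. At 20 the order was the other way, with 0.238 ± 0.0109 in KO and 0.282 ± 0.0238 in WT, and the ranges, 0.231 to 0.25 in KO and 0.259 to 0.306 in WT, did not overlap either. At 0 the ratio was 0.0519 ± 0.00796 in KO and 0.0647 ± 0.0171 in WT, with overlapping ranges.

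**Figure D4:**
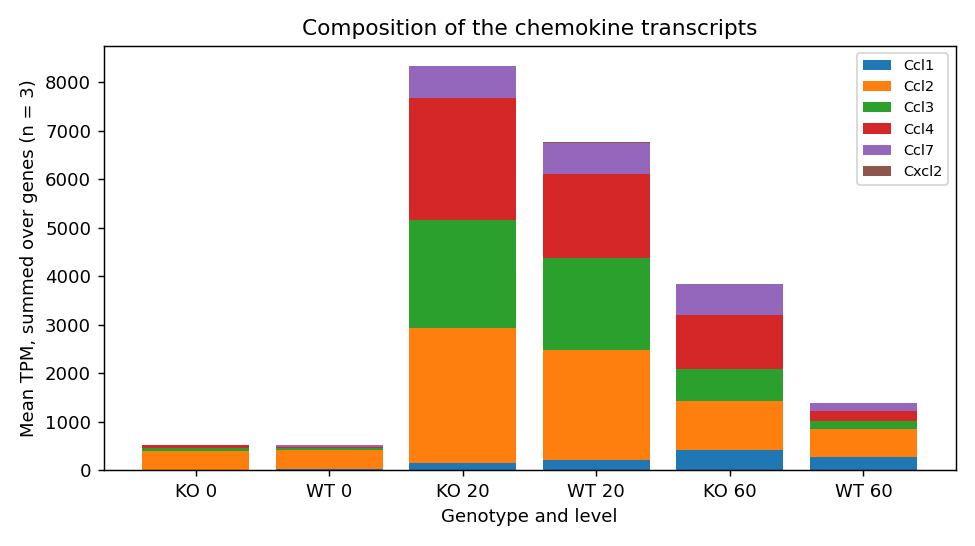
Mean TPM (3 libraries) of each chemokine, stacked, for KO and WT at levels 0, 20 and 60, with the TPM axis starting at 0; Cxcl2 is too small to see. Ccl2 makes up 73% of the bar in KO and 74.9% in WT at 0, and 33.4% in both at 20, where the bars are highest.

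Over the 18 libraries the members' log2 levels correlated with each other with Pearson r from 0.609 (Ccl1 with Ccl2) to 0.979 (Ccl3 with Ccl4). Among 10720 other genes, those most like the mean of the 6 members were Il13 (r = 0.983), Nr4a1 (0.981), Nfkbid (0.979), Csrnp1 (0.978) and Dusp6 (0.974), followed by Nfkbia (0.973), Il6 (0.971), Egr3 (0.970), Cdkn1a (0.969) and Rgs1 (0.967). Il13, which encodes a type 2 cytokine, averaged 0.57, 134 and 47.7 CPM in KO and 0.355, 143 and 7.23 CPM in WT at 0, 20 and 60. Nfkbia, which encodes an inhibitor of NF-κB, averaged 12.4, 238 and 98.7 CPM in KO and 12.8, 165 and 44.7 CPM in WT. For single members the nearest genes were Il13 for Ccl3 (0.985) and Ccl4 (0.986), Egr3 for Ccl7 (0.982) and Egr1 for Ccl2 (0.970). They were Rgs2 for Cxcl2 (0.945) and Kdm6b, a histone demethylase gene, for Ccl1 (0.937). Kdm6b averaged 175, 436 and 605 CPM in KO and 212, 620.3 and 426 CPM in WT at 0, 20 and 60. These correlations describe libraries that share stimulation level, depth and composition.

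Most other chemokine genes had few counts. Of 34 other chemokine genes on the list, 33 were in the table, 8 of them had 0 counts and 23 had under 100 counts over all libraries. Of the 10 that were tested, edgeR called 0 in each of the 12 comparisons, with 0 to 4 at an unadjusted p under 0.05, and DESeq2 called 1, Ccl27a in KO against WT at 0, which is named here for that call, after its value was seen. The 4 with the highest mean level over all libraries were Ccl9, Ccl6, Cx3cl1 and Ccl25, at 16.9, 11, 4.32 and 3.37 CPM. Ccl6, a monocyte and macrophage attractant, was at 5.71, 43.2 and 3.33 CPM in KO and 1.48, 1.41 and 1.78 CPM in WT at 0 (edgeR adjusted p = 0.29). All 3 KO libraries were above the WT libraries, and number 414 stood far above the other two.

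Of 24 chemokine receptor genes, all 24 were in the table and 10 were tested. In the 12 comparisons edgeR called 0 of them, with 0 to 4 at an unadjusted p under 0.05, and DESeq2 called Ccrl2 in 3 comparisons. Ccrl2, an atypical receptor that binds chemerin, was at 13.3, 7.32 and 6.31 CPM at 0 and 65.3, 55.6 and 26 CPM at 20 in KO. In WT it was at 15.1, 4.3 and 11 CPM at 0 and 64.9, 38.7 and 51.4 CPM at 20. The libraries at 20 were above those at 0 in both genotypes, with log2 changes of 2.45 in KO (edgeR adjusted p = 0.086) and 2.36 in WT (edgeR adjusted p = 0.085). The other receptors of highest level were Cx3cr1, Ackr1 and Cxcr4, with means of 81.1, 56.7 and 40.4 CPM over all libraries. Among receptors named above, Ccr2 was tested, and Ccr8 and Cxcr2, with 6 and 82 counts in all, were not.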

How the data were processed

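Per the labels, mRNA libraries were made from total RNA of cultured cells with a TruSeq kit. HISAT2 2.1.0 and StringTie 2.1.3b are named in the submitters' processing notes, together with the build mm10, FastQC 0.11.7 and bcl2fastq 2.20.0, and the strand is not given in the sources used here. The authors deposited 1 table of 45777 genes with a read count, an FPKM and a TPM per library, and all 54 value columns were mapped to the 18 libraries. Counts, which the authors had not normalized, were filtered with filterByExpr to 17159 genes and scaled by TMM. The quasi-likelihood test of edgeR 4.0.16 (R 4.3.3) was run on the 18 libraries together, each of the 6 groups having its own mean, and a gene was called at an adjusted p under 0.05 (Benjamini-Hochberg, over the tested genes). CPM are scaled by TMM too, SE is the absolute log2 fold change divided by the square root of F, and changes within cultures use log2(CPM + 0.1). The deposited TPM values served for levels compared between genes and for an alternative in limma 3.58.1, and the deposited FPKM values were not used. DESeq2 1.42.0 was another alternative, and the closing section gives the effect of all of them.

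Pairing by library number was checked by correlating deviations from the group means. The lowest correlation of same-numbered libraries was over 0.1 for KO 20 and KO 60 against KO 0, KO 60 against KO 20, WT 20 against WT 0 and KO 60 against WT 60 (0.33 to 0.76), where the number is taken as a pair. It was −0.02 to 0.02 in the other comparisons of 2 groups. Libraries of a group were compared for copies, and none were found. The model was tested on simulated data. Members, gene lists and comparisons were chosen with earlier results of these data known. The leaving out of 4 libraries with over 30% mitochondrial counts was chosen after seeing the data. Other chemokines and receptors are named where called, together with the 4 of highest mean CPM, and like genes are the 10 with the highest Pearson r among tested genes with at least 5 CPM in a group. Figures were drawn with matplotlib 3.10.9. Floors of 3 counts cover counting error only, whereas SD and SE reflect the spread among libraries or cultures. Some items are not reported here.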

Additional observations from a re-analysis of the deposited data

How the results depend on the processing

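The precision of these results is limited by 3 libraries per group and, for Cxcl2, by counts of 0 to 153 per library. Scaling with RLE factors, and leaving mitochondrially encoded counts out before scaling, kept every count of members or genes called within 1.5 times of that reported. Scaling by library size moved the median of all genes by over 0.1: it was −0.22 for KO 60 against 0, −0.20 for KO 60 against 20, 0.16 for KO against WT at 0, 0.14 at 20, and −0.12 for both differences in response at 60. In no alternative did the calls of Ccl3, Ccl4 and Ccl7 at 20 against 0 in either genotype, or of Ccl1, Ccl3, Ccl4 and Ccl7 in KO at 60 against 0, change. Where an alternative moved a value below, the cause was not tested.

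The number of members called differed from that reported as follows, for the alternatives that keep all libraries or leave out the 4 of high mitochondrial share. In KO at 20 against 0 (4 reported) it was 5 with no filter and with limma on log2(TPM + 1), and 6 with DESeq2, limma on log2(TPM + 0.1), the compared groups alone and either block. In WT at 20 against 0 (4 reported) it was 3 with limma on log2(TPM + 1), 5 with limma on log2(TPM + 0.1) and either block, and 6 with DESeq2. In KO at 60 against 0 (6 reported) it was 4 with library size scaling and both TPM fits and 5 with the compared groups alone. In KO at 60 against 20 (0 reported) it was 2 with DESeq2, 1 with a replicate block by number and 2 with one by culture. In WT at 60 against 0 (0 reported) it was 1 with no filter, 4 with DESeq2, 2 with the number as a block, 3 with the culture as a block and 1 with the mitochondrial share as a covariate. In WT at 60 against 20 (2 reported) it was 1 with library size scaling, with limma on log2(TPM + 1) or log2(TPM + 0.1) and without the 4 libraries of high mitochondrial share, 3 with the number as a block, 4 with DESeq2 and with the culture as a block, and 0 with the compared groups alone. In KO against WT at 60 (0 reported) it was 3 with DESeq2 and 1 with the number as a block. Leaving out 1 library at a time gave 4 to 4 members in KO and 4 to 4 in WT at 20 against 0, 4 to 6 in KO and 0 to 4 in WT at 60 against 0, 0 to 0 in KO and 1 to 2 in WT at 60 against 20, and 0 to 1 in KO against WT at 60.

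Among all genes, 77, 436 and 191 were called in KO (20 against 0, 60 against 0, 60 against 20), 103, 38 and 76 in WT, and 47, 36 and 46 in KO against WT at 0, 20 and 60. With DESeq2 these were 138, 967 and 543, then 200, 258 and 327, then 251, 119 and 226, with 1 and 2 for the differences in response at 20 and at 60 against 0 (0 reported). With a replicate block by number they were 1094 and 521 in KO at 60 (against 0 and 20), 158, 206 and 269 in WT, and 208, 119 and 183 in KO against WT. With the culture as a block they were 135, 1832 and 975 in KO, 189, 478 and 585 in WT, and 1 for the difference in response at 20. With library size scaling they were 163 and 33 in KO at 60 (against 0 and 20) and 4 and 37 in WT at 60. With no filter they were 122 for KO 60 against 20 and 1 for the difference in response at 20. With limma on log2(TPM + 1) they were 87 and 21 in KO at 60 and 59, 1 and 31 in WT, and on log2(TPM + 0.1) 79 and 15 in KO at 60 and 64, 0 and 29 in WT. With the compared groups alone they were 243 for KO 60 against 0, 53, 0 and 3 in WT, and 19 and 19 for KO against WT at 0 and 60. With the mitochondrial share as a covariate they were 695 for KO 60 against 0, and 71 and 128 in WT at 60. Without the 4 libraries of high share they were 67 for KO 60 against 20, 56, 0 and 16 in WT, and 28 and 21 for KO against WT at 0 and 60. Leaving out 1 library at a time gave 54 to 74, 174 to 360 and 32 to 62 in KO, 47 to 101, 0 to 73 and 38 to 59 in WT, 27 to 46, 22 to 31 and 30 to 51 for KO against WT, and 0 to 1 for the difference in response at 20.

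Signs turned where values were small or rested on 1 library. For KO 60 against 20, Ccl7 was −0.05 with library size scaling and −0.17 with both TPM fits, and Cxcl2 was −0.27 and −0.55 with the TPM fits, −0.36 with the number and −0.17 with the culture as a block. For WT 60 against 20, Ccl1 was −0.45 with both TPM fits and −0.21 with the culture as a block. For KO against WT at 20, Ccl7 was 0.02 with library size scaling and 0.07 with the TPM fits, and Ccl2 and Ccl3 were −0.05 and −0.04 with the mitochondrial covariate. At 0 Ccl3 was −0.03 without the libraries of high share, and at 60 Cxcl2 was −0.04 with the covariate and Ccl1 was −0.25 without those libraries. For the difference in response at 20, Ccl3 was −0.01 with no filter and with the culture as a block and −0.04 with the covariate, and Cxcl2 was 0 with limma on log2(TPM + 1). Leaving out 1 library at a time, the ranges that crossed 0 were −0.03 to 0.26 for Ccl7 and −1.16 to 0.63 for Cxcl2 (KO 60 against 20) and −1.35 to 1.19 for Ccl1 (WT 60 against 20). They were −0.06 to 0.31 for Ccl3 and −4.55 to 0 for Cxcl2 (KO against WT at 0), −0.03 to 0.29 for Ccl3 and −0.24 to 0.03 for Ccl7 (at 20), and −0.36 to 3.24 for Cxcl2 (at 60). For differences in response they were −0.22 to 0.21 for Ccl3, −0.54 to 0.24 for Ccl4 and −0.34 to 4.21 for Cxcl2 at 20 against 0, and −0.02 to 3.58 for Cxcl2 at 60 against 20.

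In the exact sign-flip tests of 60 against 0, Ccl1, Ccl2, Ccl3, Ccl4 and Ccl7 were higher at 60 in 6 of 6 cultures (exact p = 0.031 each). The check of pairing had a lowest correlation of 0.02 for WT 60 against WT 0, so that the WT pairs are not borne out. In the alternatives, Ccl3 and Ccl4 had 2.39 and 3.17 with library size scaling and 2.36 and 3.20 with log2(TPM + 0.1) (exact p = 0.062 each). Ccl2 had 0.88 with log2(TPM + 0.1) (exact p = 0.094). Without the pairing by culture, 6 against 6 libraries, Cxcl2 kept its mean change of 2.69 with exact permutation p = 0.015, against exact p = 0.062 with it.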
